A study of Gasterosteus aculeatus with 9 samples.

Results

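The genes described here are the contractile apparatus of skeletal muscle, that is the thick and thin filament proteins of the sarcomere, the troponins that switch it on, and the calcium pump, channels and energy enzymes that serve it. A fixed list of 37 Swiss-Prot entry names was used, and a transcript of the de novo assembly was counted as a member when the first protein matched to it carried 1 of these names. 33 of the 37 names had at least 1 row. Together they held 190 of the 98643 transcripts in the deposited counts and 33 of the 10495 names. The authors had already removed transcripts of low expression, so that a name without a row can still have been assembled. No row carried MLRS (fast regulatory myosin light chain), MYG (myoglobin), SMYD1 (a methyltransferase of muscle) or KLH41 (a kelch protein of the sarcomere) as its first match. An entry name stands for the most similar protein of the database, in many cases of another species, and not for a proven stickleback gene.

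Gill RNA of 9 wild threespine sticklebacks (Gasterosteus aculeatus) was sequenced, and the fish were caught by electrofishing in urban streams of the River Boye system in Germany. The fish came from Station A (mid-salinity, 26.378 mg/L chloride), Station C (high-salinity, 32 mg/L chloride) and Station B (reference, 12.912 mg/L chloride), with 3 fish each. The replicates were separate fish, and each station was a different stream reach, so that station and chloride cannot be told apart. Total estimated counts per library lay between 22049066 and 46214540.

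Skeletal muscle shortens when calcium released from the sarcoplasmic reticulum binds troponin C and lets myosin heads pull on actin. Fast and slow fibres carry different paralogs of many of these proteins, for instance TNNC2, TNNI2 and TNNT3 in fast and TNNC1, TNNI1 and TNNT1 in slow fibres. In fish, the gill arches carry small striated muscles that move the filaments, next to the epithelium, pillar cells and cartilage that make up most of the organ. In bulk RNA, fewer muscle cells and less muscle RNA per cell cannot be told apart. Levels are CPM, that is counts brought to a common library total, with TMM normalization, and they are compared for each gene between fish only, since no transcript lengths were used.

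Station C replicate 2 stood apart in genes other than those of muscle. The 9 liver names found of 10 listed summed to 122467 CPM in this library, against 76.0 to 265 CPM in the other 8 libraries. TRFE (transferrin) was at 39919.9 CPM in this library and at no more than 10.1 CPM in any other, and FIBB and FIBG (fibrinogen chains) were at 0 in all other libraries, with 178 and 85.6 CPM in this one. The gill epithelium list (12 names found of 14) summed to 3191 CPM in Station C replicate 2, against 8938 to 11362 CPM in the other 8 libraries. 8 of its 12 names were lowest there, against 33.7% of the 9251 names that passed a filter on low counts. CLD4 (a claudin of tight junctions) had 9.99 CPM in this library, against 1484 to 2413 CPM elsewhere, and P63, EPCAM and FOXI1 were each below 1 CPM. K1C18 (a keratin) and VATB2 (a proton pump subunit) were within the range of the other libraries, though lowest there by CPM without TMM scaling, and CADH1 (E-cadherin) was above it on both scales. The library labelled gill of Station C replicate 2 thus went against its label in several defining markers, and its TMM factor was 0.572, against 1.02 to 1.13 in the other 8 libraries. Results that rest on it are given with and without it, and its part in the muscle levels was not tested.

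The muscle genes varied widely between fish of the same station. Summed over the 33 names, the level was 4066, 9992 and 6765 CPM in the Station A fish, 1064, 35047 and 3605 CPM in the Station C fish, and 1054, 3721 and 7252 CPM in the Station B fish. Station C replicate 2 was the highest at 3.51 times the next fish, or 1.84 times by CPM without TMM scaling. The multiples given below for this library carry its TMM factor of 0.572 and are smaller without it. Station C replicate 1 and Station B replicate 1 were the lowest. The ranges of all 3 stations overlapped, and within Station B alone the highest fish had 6.88 times the level of the lowest. The mean was 6941 ± 2967 CPM in Station A fish, 13239 ± 18929 CPM in Station C fish, and 4009 ± 3109 CPM in Station B fish (SD, n = 3 each), and 2335 CPM over the 2 other Station C fish. As a share of all counts, which does not depend on the TMM factor, the muscle genes held 0.110% to 1.09% in the 8 other fish and 2.01% in Station C replicate 2.

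**Figure D1:**
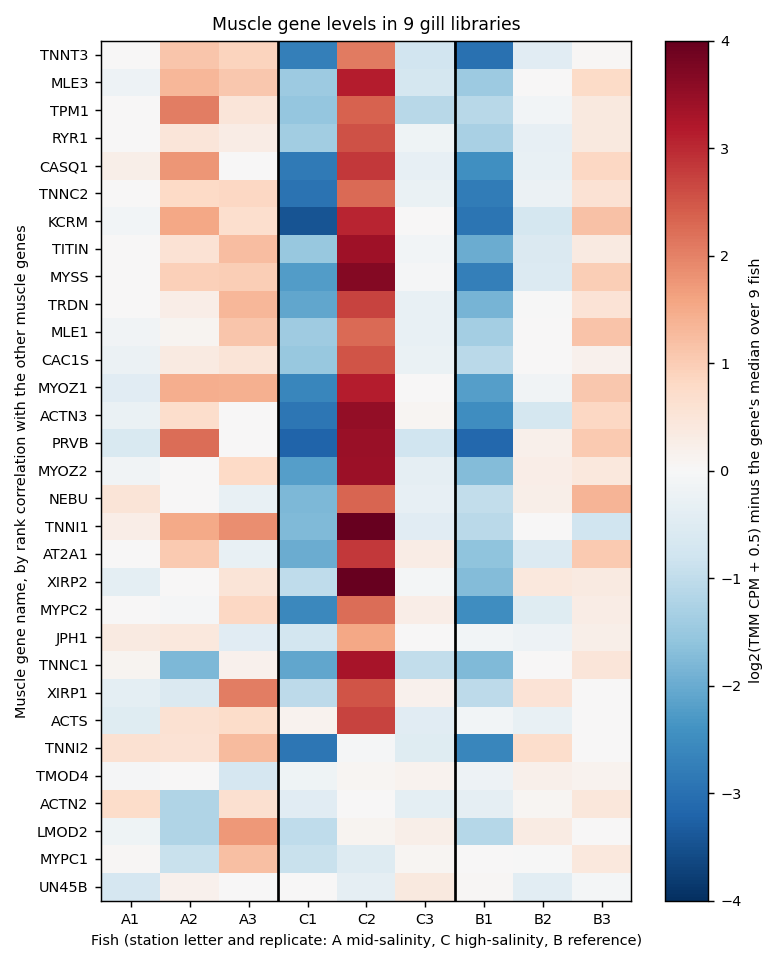
Levels of the 31 muscle names that passed the filter on low counts (rows) in 9 fish (columns, Stations A, C and B from left to right), as log2(TMM CPM + 0.5) minus the median of the gene over the 9 fish. Red is above and blue below the median, and the colours stop at 4. Most rows are blue in Station C replicate 1 and Station B replicate 1 and red in Station C replicate 2, and the lowest rows do not share this order.

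This order of fish was repeated from gene to gene. 2 of the 33 names, TNNT1 and PRVA, did not pass the filter on low counts. Of the 31 that passed, 25 were highest in Station C replicate 2, against 34.1% of all 9251 names, and 23 of 31 by CPM without TMM scaling. Among the other 8 fish, Station C replicate 1 and Station B replicate 1 were together the lowest pair in 23 of 31 members, against 4.35% of all names. No member was highest in either of them. The 8 members with another lowest pair were ACTS, TNNC1, MYPC1, ACTN2, UN45B, JPH1, LMOD2 and TMOD4. The median SD over the 9 fish was 1.47 on the log2 scale for members and 0.41 for all names, and without Station C replicate 2 it was 1.08 and 0.27. 23 of the 31 members were then among the most variable 10% of names. Stations accounted for a median of 8.42% of the sum of squares of a member over the 9 fish, against 22.8% for all names, and for 32.0% against 30.0% without Station C replicate 2.

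Among thick filament proteins, MYSS, a fast skeletal myosin heavy chain and the motor of the sarcomere, was at 731, 1417 and 1434 CPM in the Station A fish, 156, 9364 and 714 CPM in the Station C fish, and 109.7, 499.6 and 1435 CPM in the Station B fish. Station C replicate 2 had 6.53 times the level of the next fish, and the Station A and Station B fish overlapped. MYPC2, the fast form of myosin-binding protein C, was at 113, 109 and 201 CPM in the Station A fish, 18.5, 528 and 134 CPM in the Station C fish, and 19.6, 80.1 and 139.7 CPM in the Station B fish. Both low fish were again those numbered 1 at Stations C and B. MYPC1, the slow form, was at 19.1, 9.76 and 42.9 CPM in the Station A fish, 9.79, 12.7 and 19.5 CPM in the Station C fish, and 18.5, 18.4 and 25.1 CPM in the Station B fish, and here Station C replicate 2 was not high. The light chains MLE1 and MLE3, which stiffen the neck of the myosin head, had few reads, between 0.127 and 18.3 CPM, with Station C replicate 1 and Station B replicate 1 the lowest. TITIN, the giant spring that runs from the Z disc to the M band, was at 82.2, 122 and 194 CPM in the Station A fish, 28.4, 861 and 75.6 CPM in the Station C fish, and 20.2, 55.4 and 106 CPM in the Station B fish. Its reads were divided among 21 assembled genes.

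Thin filament genes were divided in how they ranked the fish. Of the 10 that passed the filter, 4 had a rank correlation (Spearman rho) of at least 0.8 with the sum of the other members over 9 fish, and 3 without Station C replicate 2, which were TNNT3, TNNC2 and TPM1. TNNT3, the fast troponin T that ties troponin to tropomyosin, was at 344, 742 and 639 CPM in the Station A fish, 51.5, 1462 and 203 CPM in the Station C fish, and 43.0, 253 and 355 CPM in the Station B fish. It ranked the fish most like the other members did (Spearman rho 0.98 with their sum over 9 fish and 0.98 over 8). TNNI2, the fast inhibitory troponin, was at 499.7, 489 and 792 CPM in the Station A fish, 43.7, 317 and 236 CPM in the Station C fish, and 53.4, 539.6 and 328 CPM in the Station B fish. It was the exception among abundant fast genes, since Station C replicate 2 ranked below 5 other fish. TNNC2, the calcium sensor of fast fibres, was at 180.1, 317 and 322 CPM in the Station A fish, 23.0, 859.7 and 150.1 CPM in the Station C fish, and 25.3, 154 and 269.5 CPM in the Station B fish. TPM1, a tropomyosin, lay between 7.68 and 122 CPM, and NEBU (nebulin, which lines the thin filament) between 0.356 and 14.5 CPM. TMOD4, which caps the filament, lay between 14.8 and 27.6 CPM in all fish, a range of 1.87 times.

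ACTS, skeletal alpha-actin, was at 252, 534 and 577 CPM in the Station A fish, 383, 2292 and 256 CPM in the Station C fish, and 326, 285 and 349.7 CPM in the Station B fish, a range of only 2.29 times among the 8 other fish. Its level was the sum of unlike transcripts. The assembled gene DN970_c0_g2 was at 234, 519 and 551 CPM in the Station A fish, 135, 2282 and 245 CPM in the Station C fish, and 122, 180.0 and 325 CPM in the Station B fish, and Station B replicate 1 was again the lowest. The assembled gene DN4243_c0_g1 was at 0.491, 0.286 and 0.916 CPM in the Station A fish, 236, 0 and 0.652 CPM in the Station C fish, and 169, 91.4 and 2.35 CPM in the Station B fish, so that it was present mainly in Station C replicate 1 and Station B replicates 1 and 2, the fish with little of the other. Actins are a family of near-identical genes, and the division of reads among them is uncertain.

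At the Z disc, ACTN3, the alpha-actinin of fast fibres that anchors actin, was at 69.2, 137 and 83.7 CPM in the Station A fish, 10.8, 955 and 88.0 CPM in the Station C fish, and 14.6, 51.5 and 150.0 CPM in the Station B fish. ACTN2, the form of all fibres and heart, was at 12.9, 3.05 and 12.2 CPM in the Station A fish, 5.50, 7.64 and 5.68 CPM in the Station C fish, and 5.86, 8.17 and 10.7 CPM in the Station B fish, and its lowest fish was Station A replicate 2. MYOZ1, a calcineurin-binding Z disc protein of fast fibres, was at 13.5, 52.8 and 51.2 CPM in the Station A fish, 2.67, 172 and 18.9 CPM in the Station C fish, and 3.69, 17.1 and 40.3 CPM in the Station B fish. MYOZ2, its counterpart in slow fibres and heart, was at 27.1, 29.8 and 52.4 CPM in the Station A fish, 6.13, 322 and 22.9 CPM in the Station C fish, and 8.54, 36.0 and 39.7 CPM in the Station B fish. Both myozenins followed the common order of fish, while ACTN2 did not. XIRP1 and XIRP2, actin-binding proteins of muscle attachments, were at 4.88 to 62.9 CPM and 2.19 to 181 CPM. LMOD2, which lengthens thin filaments, and UN45B, a myosin chaperone, stayed below 7 CPM in every fish.

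Of the 8 genes of calcium handling and energy supply that passed the filter, 6 had a rho of at least 0.8 with the sum of the other members over 9 fish, and 5 without Station C replicate 2. PRVB, a parvalbumin that soaks up calcium and speeds relaxation, was at 419, 3049 and 641 CPM in the Station A fish, 68.7, 7079 and 369 CPM in the Station C fish, and 72.8, 742 and 1332 CPM in the Station B fish. It had the widest range of the abundant members, 103 times over 9 fish and 44.4 times over the 8 others. PRVA, the alpha form, had no more than 0.209 CPM in any fish. AT2A1, the calcium pump of fast sarcoplasmic reticulum, was at 396, 819.8 and 324 CPM in the Station A fish, 99.1, 2789.7 and 481 CPM in the Station C fish, and 130.4, 273 and 826 CPM in the Station B fish. KCRM, the muscle creatine kinase that buffers ATP, was at 561, 1775 and 964 CPM in the Station A fish, 55.6, 5068 and 608 CPM in the Station C fish, and 80.5, 373 and 1384 CPM in the Station B fish. Station C replicate 1 and Station B replicate 1 had no more than 80.5 CPM of KCRM, against at least 373 CPM in any other fish. CASQ1 (calsequestrin, the calcium store) lay between 4.60 and 254 CPM, and the release and voltage-sensing channels RYR1 and CAC1S between 2.72 and 49.0 CPM and between 6.51 and 114 CPM. TRDN (triadin) lay between 1.93 and 65.3 CPM, and JPH1, which joins both membranes, between 4.17 and 22.5 CPM. All 5 had their highest level in Station C replicate 2.

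The correlation of members over fish was high for most and near 0 for a few. Over the 9 fish the median Spearman rho of the 465 member pairs was 0.67 (range -0.67 to 0.98), against 0.00 for all pairs of the 9251 names. 156 pairs (33.5%) were above 0.8, against 1.22% of all pairs. Without Station C replicate 2 the median was 0.60 over 496 pairs of 32 names, and 25.0% were above 0.8, against 1.63% of all pairs. Pearson's r of log2(CPM + 0.5) had a median of 0.80 over 9 fish and 0.70 over 8. These correlations are descriptions over 9 or 8 fish. The points of any pair share a library, its depth and its scaling.

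**Figure D2:**
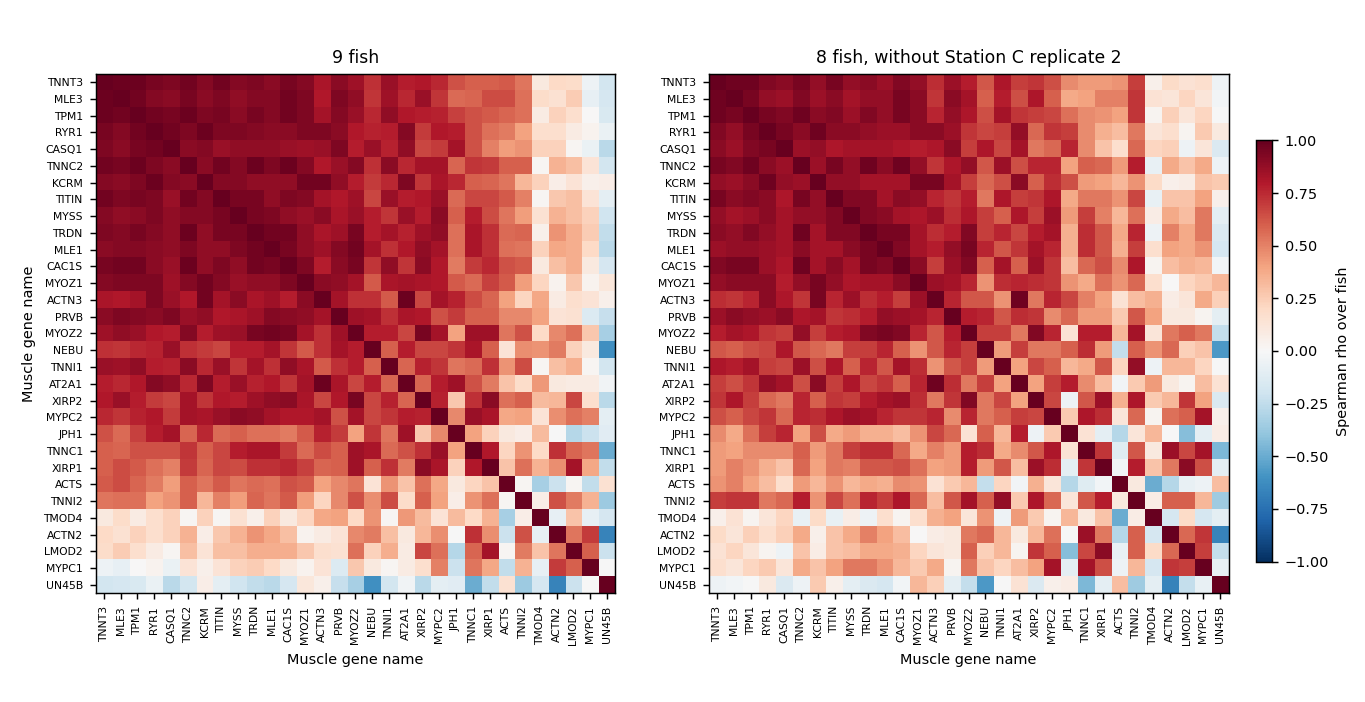
Spearman rho over fish between each pair of the 31 muscle names, over 9 fish (left) and over the 8 fish without Station C replicate 2 (right), with names in the same order. A block of red covers TNNT3 to MYPC2 in both panels, and TMOD4, ACTN2, LMOD2, MYPC1 and UN45B lie outside it.

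Set against the sum of the other members, 17 of the 31 names had a rho of at least 0.8 over 9 fish, 8 lay between 0.5 and 0.8, and 6 lay below 0.5. Over the 8 fish without Station C replicate 2 these numbers were 14, 9 and 8. The share of all names that reached 0.8 against this sum is not given, here or beside the counts for single groups of members and other lists. TNNT3, MLE3, TPM1, RYR1 and CASQ1 led with a rho of 0.97 to 0.98. TNNI2 (0.38 and 0.50 over 9 and 8 fish), TMOD4 (0.20 and 0.17), ACTN2 (0.18 and 0.17), LMOD2 (0.12 and 0.07), MYPC1 (-0.07 and 0.14) and UN45B (-0.22 and -0.10) were the 6 below 0.5. ACTS had 0.53 over 9 fish and 0.33 over 8. With Station C replicate 2 and Station A replicate 2 left out, the 2 fish whose sums were farthest from the median in CPM, Pearson's r of the log2 levels was 0.97 for TNNT3 and -0.17 for UN45B. In the same 7 fish r was 0.76 for MYPC1, 0.78 for ACTN2 and 0.81 for LMOD2. On the log2 scale the farthest were Station C replicate 2 and Station B replicate 1, and without these r was 0.96 for TNNT3, 0.09 for UN45B, 0.39 for MYPC1, 0.05 for ACTN2 and 0.26 for LMOD2. The high values of MYPC1, ACTN2 and LMOD2 thus came with leaving out Station A replicate 2, which was the lowest fish for each.

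Fast and slow fibre genes did not keep a fixed proportion. The 13 fast names found summed to 2808, 7259.9 and 4531 CPM in the Station A fish, 478, 23807 and 2425 CPM in the Station C fish, and 479, 2642 and 4946 CPM in the Station B fish. The 5 slow names found summed to 239, 96.2 and 301 CPM in the Station A fish, 57.9, 2351 and 133 CPM in the Station C fish, and 79.1, 233 and 312 CPM in the Station B fish. The ratio of fast to slow sums, which can be compared between fish but not read as a ratio of fibres, was 11.7, 75.5 and 15.1 in the Station A fish, 8.26, 10.1 and 18.2 in the Station C fish, and 6.06, 11.3 and 15.9 in the Station B fish. Station A replicate 2 had the highest ratio with the third lowest slow sum, Station B replicate 1 had the lowest, and Station C replicate 2 lay inside the range of the others in spite of its level. TNNC1 was the largest part of the slow sum in every fish, so that this sum mostly followed 1 gene. The mean ratio was 34.1 ± 35.9 at Station A, 12.2 ± 5.28 at Station C and 11.1 ± 4.90 at Station B (SD, n = 3 each), with overlapping ranges, and it was 13.4 at Station A without replicate 2 and 13.2 at Station C without replicate 2. The log2 sums of fast and slow genes had a Pearson r of 0.82 and a Spearman rho of 0.75 over 9 fish, 0.68 and 0.64 without Station C replicate 2, and with 2 fish left out the value turned on which. They were 0.96 and 1 without Station C replicate 2 and Station A replicate 2, the fish farthest from the median fast sum in CPM, and 0.49 and 0.46 without Station C replicates 1 and 2, those farthest on the log2 scale. For the fast sum without MYSS and PRVB they were 0.81 and 0.73 over 9 fish, and 0.74 and 0.62 without Station C replicate 2. Without Station C replicates 1 and 2, here the farthest in CPM, they were 0.57 and 0.43. Without Station C replicate 1 and Station B replicate 1, here the farthest on the log2 scale, they were 0.78 and 0.43. The median rho was 0.86 over the 66 pairs of fast genes, 0.55 over the 6 pairs of slow genes and 0.66 over the 48 mixed pairs, and 0.80, 0.61 and 0.61 without Station C replicate 2.

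**Figure D3:**
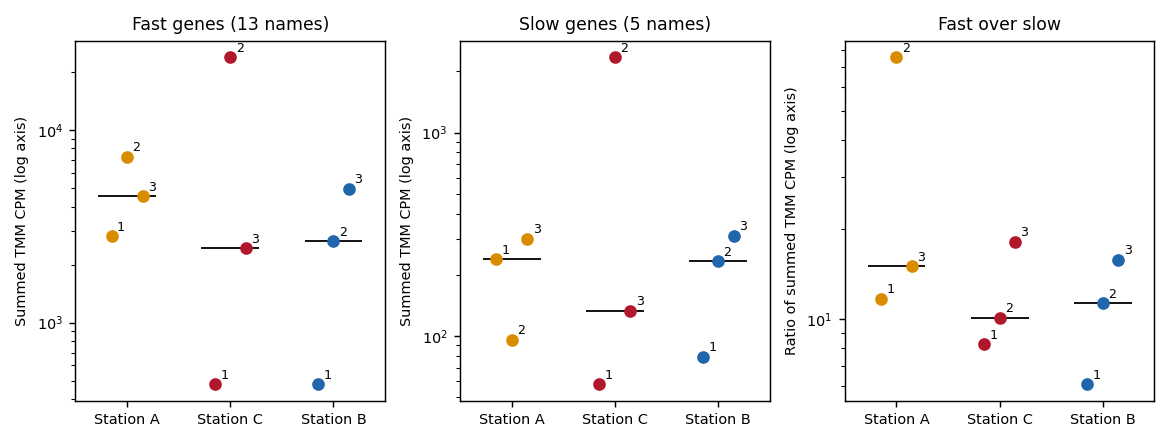
Summed TMM CPM of the 13 fast names (left) and the 5 slow names (middle), and the ratio of both sums (right), in each fish of Stations A, C and B, all on log axes. Points are fish numbered by replicate and bars are station medians. The fast sum of Station C replicate 2 is above all others at 3.28 times the next fish, a multiple that carries its TMM factor of 0.572. The ratio of Station A replicate 2 is the highest at 75.5.

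The slow genes themselves split. TNNC1, the troponin C of slow fibres and heart, was at 191, 50.7 and 197 CPM in the Station A fish, 41.8, 1746 and 89.5 CPM in the Station C fish, and 51.4, 177 and 246 CPM in the Station B fish. Station C replicate 2 had 7.09 times the next fish, and Station A replicate 2, which was high in fast genes, was among the 3 lowest fish. TNNI1, slow troponin I, was at 2.14, 5.82 and 7.50 CPM in the Station A fish, 0.153, 269.5 and 1.11 CPM in the Station C fish, and 0.541, 1.70 and 0.765 CPM in the Station B fish. It was thus below 8 CPM in the 8 other fish and at 35.9 times the next of them in Station C replicate 2. TNNT1, slow troponin T, had no more than 0.561 CPM in any fish and no reads in Station A replicates 1 and 2 and Station C replicate 1, where a count of 0 allows up to 0.136, 0.0782 and 0.0852 CPM. The ratio of TNNI2 to TNNI1 was 1.18 in Station C replicate 2 and between 83.9 and 429 in the other 8 fish, with Station A replicate 2 the lowest of these. The ratio of TNNC2 to TNNC1 was 6.24 in Station A replicate 2 and between 0.491 and 1.68 in the other 8, with 0.492 in Station C replicate 2. MYPC2 over MYPC1 and ACTN3 over ACTN2 were highest in Station C replicate 2, at 41.7 and 125, against 1.06 to 11.1 and 1.96 to 45.0 elsewhere. Station A replicate 2 was the next in both. MYOZ1 over MYOZ2 lay between 0.432 and 1.77 in all fish and was highest in Station A replicate 2. The troponin I pair and the MYPC and ACTN pairs thus placed Station C replicate 2 at opposite ends.

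The heart muscle list (11 names found of 17) summed to 159, 54.1 and 174 CPM in the Station A fish, 70.7, 534 and 103 CPM in the Station C fish, and 112, 119 and 193 CPM in the Station B fish. Its highest library was also Station C replicate 2, in which TNNI3 (cardiac troponin I) was at 407 CPM, against 0.710 to 8.39 CPM elsewhere, and CASQ2 at 76.5 CPM, against 1.78 to 4.82 CPM. The sum in this library was thus mostly TNNI3. Of the 8 heart names that passed the filter, 3 were highest there (2 by CPM without TMM scaling), against 34.1% of all names. The heavy chain MYH7 was lowest in the same library, at 4.84 CPM, against 21.6 to 75.3 CPM. None of the 8 heart names that passed the filter had a rho of 0.8 or more with the muscle sum. The part of heart tissue in the levels of TNNC1 and MYOZ2 was not tested.

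Fast genes were also composed of different transcripts in different fish. MYSS gathered 30 transcripts in 17 assembled genes, which are groups of transcripts that share assembled sequence. The assembled gene DN1024_c0_g1 held 76.5, 14.6 and 54.6% in the Station A fish, 59.3, 44.7 and 78.3% in the Station C fish, and 81.7, 73.9 and 83.3% in the Station B fish of the MYSS level. DN2730_c0_g1 held 0.843, 42.3 and 3.12% in the Station A fish, 1.16, 9.87 and 0.411% in the Station C fish, and 0.718, 0.431 and 0.481% in the Station B fish. Station A replicate 2 thus had the smallest share of the first and the largest of the second, and Station C replicate 2 was the next in both. In CPM, DN2730_c0_g1 was at 6.16, 599 and 44.7 CPM in the Station A fish, 1.81, 925 and 2.94 CPM in the Station C fish, and 0.788, 2.15 and 6.91 CPM in the Station B fish.

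**Figure D4:**
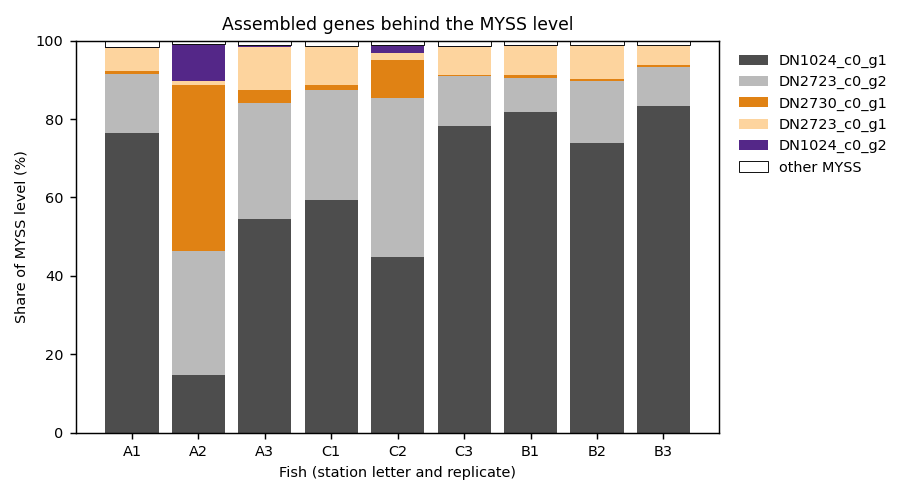
Share of the MYSS level in each fish (percent of TMM CPM, stacked bars adding to 100) held by its 5 most abundant assembled genes and by the rest, with fish of Stations A, C and B from left to right. DN1024_c0_g1 holds 14.6% in Station A replicate 2 and 44.7% in Station C replicate 2, against 54.6% to 83.3% in the other 7 fish.

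The same pair of fish was also high in some transcripts of other fast genes, and the pair was chosen after these values were seen. The 135 member transcripts with a mean of at least 1 CPM were set against 44294 transcripts of the whole table. The 2 highest fish were Station A replicate 3 and Station C replicate 2 for 33 member transcripts (24.4%, against 6.55% of all). They were Station A replicate 2 and Station C replicate 2 for another 33 (24.4%, against 3.25%). Of the member transcripts, 20 (14.8%) had at least 90% of their summed level in Station A replicate 2 and Station C replicate 2. Of all transcripts, 1382 (3.12%) did. The 20 include transcripts at 0 in 1 of the 2 fish, such as DN1024_c0_g1_i4 of MYSS, which was at 0 in Station A replicate 2. That transcript and DN3447_c0_g1_i6 of MYOZ1 (21.4 CPM) had reads in Station C replicate 2 only. They passed the limit of 1 CPM on the mean through that fish alone. With more than 5 CPM required in both fish as well, 10 member transcripts (7.41%) and 48 of all transcripts (0.108%) remained. Transcripts of low level cannot pass this second limit. The pair of fish, the limit on the mean and the counts all rest on the same values. These percentages therefore describe where the levels lay and cannot decide whether the pair shares a pattern. The 10 belonged to 5 names, with 4 of MYSS, 2 each of TNNI2 and CASQ1, and 1 each of PRVB and AT2A1. All 5 names are on the fast list. For TNNI2, DN2198_c0_g2_i2 was at 2.28, 272 and 2.84 CPM in the Station A fish, 0.890, 111 and 2.44 CPM in the Station C fish, and 0.320, 1.91 and 3.49 CPM in the Station B fish. The main TNNI2 transcript, DN2198_c0_g2_i1, was at 395, 75.1 and 540.3 CPM in the Station A fish, 37.9, 105 and 205 CPM in the Station C fish, and 46.7, 432 and 279 CPM in the Station B fish, so that in these 2 fish the usually minor transcript exceeded the main one. The CASQ1 gene DN426_c0_g1 was at 2.36, 81.6 and 1.95 CPM in the Station A fish, 1.17, 108 and 1.44 CPM in the Station C fish, and 0.123, 3.32 and 1.71 CPM in the Station B fish. Read division among similar transcripts is estimated and not observed, and single transcripts of multigene families are uncertain. One MYSS transcript, DN1024_c0_g1_i4, was at 1569 CPM in Station C replicate 2 and at 0 in the 8 other fish.

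Muscle genes outside the list varied with it in part. Of 36 further muscle names, 20 were found and passed the filter, and 8 of them had a rho of at least 0.8 with the member sum over 9 fish and 6 over 8. MYOM1 and MYOM2 (M band proteins), LDB3 (a Z disc protein), FBX40, TRI63 and STAC3 were those 6. PDLI3, LMOD3, SYPL2 and FHL1 had a rho of 0.07, -0.05, -0.18 and -0.25 over 9 fish, and of 0.52, 0.36, -0.26 and 0.07 without Station C replicate 2. In the list of muscle energy supply (10 of 10 found), AMPD1, KCRS and PGM1 reached 0.8 over 8 fish, and the list summed to 1527, 1307 and 1949 CPM in the Station A fish, 511, 5159 and 1612 CPM in the Station C fish, and 654, 1019.8 and 2846 CPM in the Station B fish. Of 8 myogenic factors 7 were found. MYOG (myogenin, the differentiation factor) was at 1.47, 1.58 and 2.36 CPM in the Station A fish, 0.254, 12.9 and 1.09 CPM in the Station C fish, and 0.369, 1.20 and 2.17 CPM in the Station B fish. All 7 were highest in Station C replicate 2, against 34.1% of all names. By CPM without TMM scaling 5 of 7 were, and MEF2A and MEF2D were not.

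Summed over each list, markers of other tissues in the gill had narrower ranges than the muscle sum among the 8 other fish. This was not so for every single name, such as CAH2, which lay between 0 and 2.27 CPM. The smooth muscle list (7 of 10 found) summed to 1593, 1900.3 and 1153 CPM in the Station A fish, 1352, 966 and 1113 CPM in the Station C fish, and 1461, 1221 and 1679 CPM in the Station B fish. 6 of its 7 names were lowest in Station C replicate 2, against 33.7% of all names. Only DESM (desmin, which skeletal muscle also makes) had a rho of at least 0.8 with the muscle sum. The gill epithelium list summed to 9673 to 10774 CPM at Station A, 3191 to 11362 CPM in the Station C fish, and 8938 to 9835 CPM in the reference fish of Station B. Its log2 sum and the muscle sum had r = -0.63 and rho = -0.12 over 9 fish, and r = 0.39 and rho = 0.26 without Station C replicate 2. Cartilage and bone names (5 of 9 found) summed to 233 to 905 CPM in the 8 other fish. Their sum was 647 CPM in Station C replicate 2, mostly from CO1A1. 3 of the 5 were highest there, against 34.1% of all names. CO2A1 was at 11.4 CPM there (0.150 to 0.978 CPM elsewhere), CO9A1 at 5.24 CPM (0.306 to 1.42 CPM) and OSTCN at 13.9 CPM (0.0299 to 0.446 CPM). CO2A1 had a rho of 0.80 with the muscle sum over 9 fish and 0.71 over 8. Vessel and pillar cell names (3 of 6) summed to 102 to 246 CPM in the 8 others and 59.1 CPM in Station C replicate 2. There VGFR2 was highest (37.3 CPM) and PECA1 lowest (15.7 CPM). Red blood cell names (2 of 6) summed to 118 to 575 CPM and 28.9 CPM. The part of these tissues in the muscle levels was not tested.

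Each station pair was then compared on its 6 fish with edgeR's quasi-likelihood test over all names, with a call at a fold above 2 and an adjusted p no larger than 0.05. For A vs B, 0 of 9052 names were called (0% of names) and 0 of 31 members. At an unadjusted p under 0.05 there were 560 names (6.19%) and 1 member, and the smallest adjusted p of a member was 0.776. 28 of the 31 members were on the side of Station A, against 51.2% of all names. Their median log2 fold change was 0.82, against 0.01 over all names. The members correlated over fish, so that these are not 28 separate results, and the same holds for the other comparisons. Without 1 fish the median was lowest without Station B replicate 1, at 0.34, and highest without Station B replicate 3, at 1.37, and it was 0.47 without Station A replicate 2 and 0.48 without Station A replicate 3. The log2 fold change was 0.82 (SE 0.82) for MYSS, 0.86 (SE 0.95) for KCRM and 1.42 (SE 0.72) for TNNT3, where the SE is the absolute value divided by the square root of the test's F. TNNI1 had 2.38 (SE 0.64), with an unadjusted p of 0.00865 and an adjusted p of 0.776. It was the only member with every Station A fish above every Station B fish, where 4.99% of names had this pattern, and no member had the opposite, against 6.9% of names. The 12 fast names had a median of 0.92 and the 4 slow names of 0.30.

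For C vs B, edgeR called 0 of 9012 names (0%) and 0 of 31 members, with 344 names (3.82%) and 0 members at an unadjusted p under 0.05. The median member log2 fold change was 1.48, against 0.03 over all names. 27 of 31 members were on the side of Station C, against 52.7% of all names. Without Station C replicate 2 the median was -0.67 and 1 of 31 members was on the side of Station C, against 47.8% of all names. The direction thus rested on this library. MYSS had 2.30 (SE 1.67) with it and -0.67 (SE 1.13) without it. KCRM had 1.61 (SE 1.69) and -0.90 (SE 1.40), and TNNC1 1.96 (SE 1.49) and -1.28 (SE 0.71). No member had all Station C fish above or below all Station B fish, against 7.43% and 6.04% of names. Without Station C replicate 2, ACTN2 had both Station C fish below every Station B fish, where 13.4% of names had this pattern, and 0 members had the opposite, against 15.6%.

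For C vs A, edgeR called 0 of 9075 names (0%) and 0 of 31 members, with 286 names (3.15%) and 0 members at an unadjusted p under 0.05. The median member log2 fold change was 0.70, against 0.02 over all names. 25 of 31 members were on the side of Station C, against 52.1% of all names. Without Station C replicate 2 the median was -1.26, with 2 of 32 on the side of Station C, against 49.2% of all names. In that comparison 16 of 31 members had both Station C fish below every Station A fish, against 10% of names, and 0 members had the opposite, against 13.6%. The 16 were MYSS, TNNC2, TNNI1, TNNI2, TNNT3, MLE1, MLE3, TPM1, TITIN, NEBU, RYR1, CASQ1, MYOZ2, PRVB, TRDN and CAC1S. They are not 16 separate results. The members correlated over the 8 fish (median rho 0.60), and Station C replicate 1 was the lowest of these fish for 20 of 31. With all 3 Station C fish only TNNI2 was lower throughout, against 4.03% of names, and no member was higher, against 5.6%. PRVB had 0.86 (SE 1.70) with Station C replicate 2 and -2.65 (SE 1.23) without it, and TNNT3 -0.02 (SE 1.16) and -2.18 (SE 0.70). edgeR called 0 names in either Station C comparison without this library. At an unadjusted p under 0.05, C vs B then had 741 of 9218 names and 1 of 31 members. C vs A had 592 of 9266 names and 5 of 32 members. The comparisons C vs A and C vs B share the Station C fish, and A vs B and C vs B share the Station B fish.

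**Figure D5:**
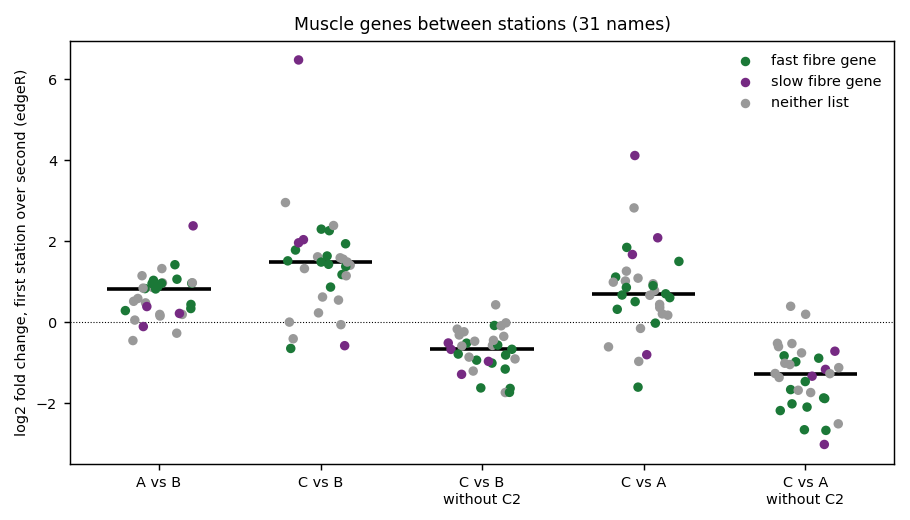
Log2 fold change (edgeR) of the 31 muscle names in A vs B and in the Station C comparisons against B and A, each of these also without Station C replicate 2 (C2). Each point is a name, coloured by fibre list, and bars are medians. The bar is at 1.48 in C vs B with Station C replicate 2 and at -0.67 without it.

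The count of names called depended on the test. DESeq2's Wald test called 35 names (0.387%) and 1 member in A vs B, which was TNNI1 on the side of Station A with a log2 fold change of 2.38 and an adjusted p of 0.0496. TNNI1 had low counts, with 48, 244 and 254 in the Station A fish and 22, 57 and 30 in the Station B fish. In C vs B DESeq2 called 12 names (0.133%) and 0 members, and 42 names (0.456%) and 0 members without Station C replicate 2. In C vs A it called 62 names (0.683%) and 0 members. Without Station C replicate 2 it called 135 names (1.46%) and 2 members, TPM1 (-2.52, adjusted p 0.0104) and TNNT3 (-2.20, adjusted p 0.0225), both lower at Station C. edgeR gave TPM1 an unadjusted p of 0.0168 and TNNT3 one of 0.0249 in the same fish, and its adjusted p for members was at least 0.631. With all fish, DESeq2 gave TNNI1 no p in C vs B and C vs A. Since edgeR called 0 names in each comparison with all fish, the other lists could not hold a call either.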

How the data were processed

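Gill RNA of 9 fish was sequenced, and stations and replicate numbers were taken from the sample labels. The authors trimmed the reads, assembled those of all fish de novo with Trinity, and removed transcripts of low expression. They annotated the transcripts against Swiss-Prot and quantified them with Salmon. They deposited estimated counts per transcript and fish, not normalized, of which 48.8% are whole, so that reads of similar transcripts were divided by estimation. Counts were rounded, summed per first Swiss-Prot entry name and scaled with whole-table totals. Named rows held 84.4% to 91.1% of the counts. A count of 3 was the limit for absence, between 0.0649 and 0.136 CPM. Intervals for single shares are not given, and limits cover counting error only.

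The 6 fish of each comparison were fitted with edgeR 4.0.16 in R 4.3.3 (filterByExpr, TMM, quasi-likelihood test, Benjamini-Hochberg adjustment over all names), and DESeq2 1.42.0 was the alternative test. Levels used TMM factors over 9 fish, with a pseudocount of 0.5 CPM on log scales, and figures were drawn with matplotlib 3.10.9. No score over the members and no list was tested, and medians and correlations are descriptions. Per-fish values are given for the 12 members with the highest mean level and for both members of each fast and slow pair, and the others by range. The members and lists were chosen with earlier results of these data known. The fits were tested on simulated data. Alternatives were other scalings, filters, units of summing, the replicate number as a block, and leaving out each fish. Sequences of the members are not printed, and coordinates are not given for a de novo assembly. The qPCR measurements are not analysed here.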

Additional observations from a re-analysis of the deposited data

How the results depend on the processing

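The medians of the members in the Station C comparisons turned with single choices. The median log2 fold change in C vs B was 1.48 and ran from -0.67 (without Station C replicate 2) to 2.06 when 1 fish was left out, and that in C vs A was 0.70 and ran from -1.26 to 1.24. In A vs B it was 0.82 and ran from 0.34 to 1.37. With the replicate number as a block the median was -0.39 in C vs A, 0.42 in C vs B and 0.82 in A vs B, and edgeR called 0 names in each. The labels give the numbers as replicates, that is different fish, and do not pair them. Column names of the deposited counts number some of the fish otherwise, and that numbering was not used. Those of Station A replicate 3 and Station C replicates 2 and 3 carry a suffix whose meaning is not given. Deviations from the station mean correlated between -0.14 and 0.28 for same-numbered fish and between -0.23 and 0.16 for the others. With 3 fish per station these values cannot decide on a pairing. Scaling by library totals alone moved the median of all names to -0.14 in C vs B and -0.11 in C vs A, and the member medians to 0.77 and 0.06. Under the alternatives edgeR called 0 names except 2 names in A vs B without Station B replicate 2 (range 0 to 2) and 1 sum per assembled gene in C vs A. DESeq2 called 35 names in A vs B, 12 in C vs B and 62 in C vs A, and 42 in C vs B and 135 in C vs A without Station C replicate 2, a setting chosen after seeing the data, with 1 member called in A vs B and 2 in C vs A without that fish. As means of log2(CPM + 0.5), fast minus slow genes differed by 2.66, 2.03 and 2.12 at Stations A, C and B, against 4.57, 3.52 and 3.36 for log2 ratios of the sums, where abundant genes weigh more. The mean ratio at Station A was 34.1 and ran from 13.4 (without Station A replicate 2) to 45.3 when 1 fish was left out. The cause of the other shifts was not tested. The other 202 values stayed on the same side or within the spread, but this count is not a measure of robustness. The fast to slow ratio of a station cannot change with scaling or with fish of other stations. The summed level of Station C is also among the 202. It was 13239 CPM, and 2478 CPM without Station C replicate 2, below Stations A and B (7487 and 4306 CPM with the same fish left out). Low counts of MLE1, MLE3, NEBU, LMOD2, UN45B, PRVA and TNNT1 limit their levels, as do those of TNNI1 outside Station C replicate 2.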

Other observations

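Names outside every list also followed the muscle genes, by limits chosen after the data were seen. Over the 8 fish without Station C replicate 2, 50 of 9251 names had a Pearson r of at least 0.9 between their log2 level and that of the member sum, together with a range of at least 2 on the log2 scale. Of these, 15 were members, 5 were in the other lists, and 30 were in none. 28 of the 30 were highest in Station C replicate 2, against 34.1% of all 9251 names. By CPM without TMM scaling 24 of the 30 were, and the share of all names on that scale is not given. This library was not used in the correlation. These are descriptions over 8 fish that share libraries and scaling.

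Entry names close to those of members without a row were among them. MLRSA, a regulatory myosin light chain of skeletal muscle, was at 491, 1475 and 1104 CPM in the Station A fish, 60.8, 1157 and 379 CPM in the Station C fish, and 68.8, 631 and 611 CPM in the Station B fish, with r = 0.97. KL41B, a kelch protein named like KLH41, was at 15.1, 18.9 and 19.3 CPM in the Station A fish, 2.67, 85.4 and 13.9 CPM in the Station C fish, and 1.85, 8.32 and 24.0 CPM in the Station B fish, with r = 0.96. The list of 37 names therefore left out transcripts whose nearest database protein carried another name. MYBPH, a myosin-binding protein, was at 23.5, 126 and 55.3 CPM in the Station A fish, 5.47, 508 and 30.0 CPM in the Station C fish, and 8.64, 17.7 and 56.0 CPM in the Station B fish. Others with known places in muscle were SGCA (a sarcoglycan of the muscle membrane, r = 0.93), CCG1 (a subunit of the muscle calcium channel, r = 0.94), JPH2 (a junctophilin, r = 0.93), ACHG (the gamma subunit of the muscle acetylcholine receptor, r = 0.93) and KAD1 (an adenylate kinase, r = 0.95). NDKA2, a nucleoside diphosphate kinase, was at 460.1, 1372 and 1217 CPM in the Station A fish, 82.5, 7091 and 308 CPM in the Station C fish, and 75.3, 389 and 546 CPM in the Station B fish, with Station C replicate 2 the highest and Station B replicate 1 the lowest. PROM2 was among the 30 with no reads in Station C replicate 2 and no more than 2.12 CPM in any fish.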
